A study of Homo sapiens with 30 samples.

Results

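The RNA levels of 10 genes for matricellular proteins were followed across 6 groups of U2OS cells, a human osteosarcoma line. They are the CCN genes CTGF, CYR61, NOV and WISP1 (now CCN2, CCN1, CCN3 and CCN4), the thrombospondin genes THBS1, THBS2 and THBS3, and SMOC1, SPARC and TNC. The genes were chosen by symbol, with earlier results of these data known, as 10 of the 57373 genes in the count table. All 10 were among the 18485 genes with enough counts to be tested. THBS2 was among them only through the groups with both agents, since it had 0 to 10 counts in every other library.

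The study asked how a transcription factor and the Wnt pathway act together. Cells were mock-transfected or given 500 ng of a plasmid that encodes either wild-type FOXP2 (called WT FOXP2) or FOXP2 lacking residues 264 to 272 (dhelix FOXP2), and were collected after 48 hours. All 3 kinds were also grown with CHIR99021 (CHIR), which blocks the kinase GSK3 and so stabilises β-catenin, at 5 µM from 72 hours before transfection. The groups are mock, CHIR, WT FOXP2, dhelix FOXP2, WT FOXP2 + CHIR and dhelix FOXP2 + CHIR, with 5 biological replicates each and 30 libraries in all. FOXP2 is a forkhead transcription factor that was supplied here by transient transfection of 1 cell line, and it is not stated that mock transfection included an empty vector. An effect of FOXP2 and an effect of carrying plasmid therefore cannot be told apart in comparisons with mock or with CHIR.

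Matricellular proteins are secreted into the extracellular matrix, where they bind receptors, growth factors and matrix fibres but do not form the scaffold themselves. CTGF and CYR61 are standard target genes of the Hippo pathway, in which the coactivators YAP and TAZ bind TEAD factors on DNA, and both also respond to SRF and TGF-β signalling. WISP1 takes its name from its induction by Wnt-1. SPARC, also called osteonectin, is an abundant protein of bone matrix, and U2OS derives from a bone tumour.

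Total counts were 15755842 to 29466652 per library. FOXP2 was at 0.249 to 1.33 CPM, the read count scaled to a fixed library size, in the 10 libraries without plasmid and at 4655 to 16321 CPM in the 20 libraries with it, as labelled. The Wnt target AXIN2 rose from a mean of 21.0 CPM in mock to 145 CPM in CHIR. It also rose with CHIR in cells with a construct, but to lower levels. Means went from 8.11 to 49.2 CPM with WT FOXP2 and from 9.99 to 62.4 CPM with dhelix FOXP2. Of 6 bone or mesenchymal markers, 5 were at 1 CPM or more in every group, with SP7 near 0. The labels call the cells epithelial: KRT8 and KRT18 were high, EPCAM averaged 4.16 to 8.35 CPM over the groups and KRT19 was near 0. CDH1, the fifth epithelial marker, was low, at group means of 0.377 CPM in mock to 1.34 CPM in dhelix FOXP2. CHIR replicate 1, dhelix FOXP2 replicate 5 and WT FOXP2 + CHIR replicate 4 stood apart from their groups. Without these 3 libraries, 118 of 120 results for the genes kept their direction and their side of the threshold, and the largest shift outside THBS2 and WISP1 was 0.10 on the log2 scale. Both that changed were small interactions of SPARC.

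The promoters of CTGF, THBS1, THBS2 and SMOC1 are shown because their RNA covered some of the widest ranges among the 10 genes and because the first 3 carry the core letters of the TEAD site. Each sequence is the 250 bases before the RefSeq start of the gene on GRCh38.p14, written 5′ to 3′ on the strand of the gene, and capitals mark GGAATG or its reverse complement. The promoter table used here, taken from RefSeq, was matched for 7 of the 10 genes, all but CYR61, NOV and WISP1. The window shown for CTGF is chr6:131951373-131951622 on the minus strand, for THBS1 chr15:39580829-39581078 on the plus strand, for THBS2 chr6:169253847-169254096 on the minus strand and for SMOC1 chr14:69879166-69879415 on the plus strand.
CTGF: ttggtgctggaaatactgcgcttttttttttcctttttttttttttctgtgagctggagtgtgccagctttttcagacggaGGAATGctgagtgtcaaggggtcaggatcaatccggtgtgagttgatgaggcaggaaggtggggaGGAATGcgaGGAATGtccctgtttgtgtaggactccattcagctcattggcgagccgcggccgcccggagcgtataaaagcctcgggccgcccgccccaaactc
THBS1: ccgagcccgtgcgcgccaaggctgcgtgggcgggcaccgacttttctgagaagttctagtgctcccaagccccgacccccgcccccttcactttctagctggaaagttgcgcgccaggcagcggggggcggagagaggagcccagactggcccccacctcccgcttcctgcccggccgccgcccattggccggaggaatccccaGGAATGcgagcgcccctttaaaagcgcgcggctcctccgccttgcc
THBS2: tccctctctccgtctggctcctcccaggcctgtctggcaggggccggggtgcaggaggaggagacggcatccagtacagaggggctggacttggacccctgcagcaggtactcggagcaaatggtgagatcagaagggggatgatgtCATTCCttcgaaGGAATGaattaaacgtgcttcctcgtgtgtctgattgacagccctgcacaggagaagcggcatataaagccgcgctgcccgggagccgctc
SMOC1: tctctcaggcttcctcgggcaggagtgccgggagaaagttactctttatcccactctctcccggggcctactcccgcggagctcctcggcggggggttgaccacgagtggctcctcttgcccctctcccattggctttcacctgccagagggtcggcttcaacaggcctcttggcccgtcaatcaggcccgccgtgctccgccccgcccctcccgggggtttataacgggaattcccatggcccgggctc
The CTGF sequence held GGAATG 3 times, at 169, 104 and 95 bases before the start. THBS1 held it once, at 46 bases, and THBS2 held it at 91 bases and, on the other strand, at 103 bases. Among 35116 promoters of the same length, 11.9% held GGAATG on either strand and 0.0826% held it 3 times or more. SPARC held 1 match at 17 bases, and SMOC1, TNC and both starts of THBS3 held none. The TCF/LEF core CTTTGA, the forkhead core TAAACA, the AP-1 site TGANTCA and the SRF site known as the CArG box were also searched on both strands and had no match in any of the 7 genes. Those letters occurred in 11.2%, 11%, 6.57% and 1.16% of all promoters. A match describes the letters only and is no evidence of binding.

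Compared per kilobase of exon, SPARC was the leading gene of the 10 in 5 of the 6 groups, at 415 ± 7.16 CPM per kb (SD, n = 5) in mock. In WT FOXP2 cells the first place passed to CTGF, at 288 ± 8.32 CPM per kb against 177 ± 7.11 for SPARC. THBS1 had rank 2 in mock at 98 CPM per kb and rank 6 in CHIR at 7.03. TNC had rank 4 in mock at 61.3 CPM per kb and rank 2 in CHIR at 239, a level that differed from that of SPARC in CHIR (242) by less than the SD of either gene. In WT FOXP2 + CHIR, SPARC at 113 ± 3.67 and TNC at 111 ± 3.12 CPM per kb were likewise closer than either SD. THBS2 was the lowest of the 10 in every group. All other levels below are in CPM, which compare a gene with itself across groups and not with another gene.

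**Figure D1:**
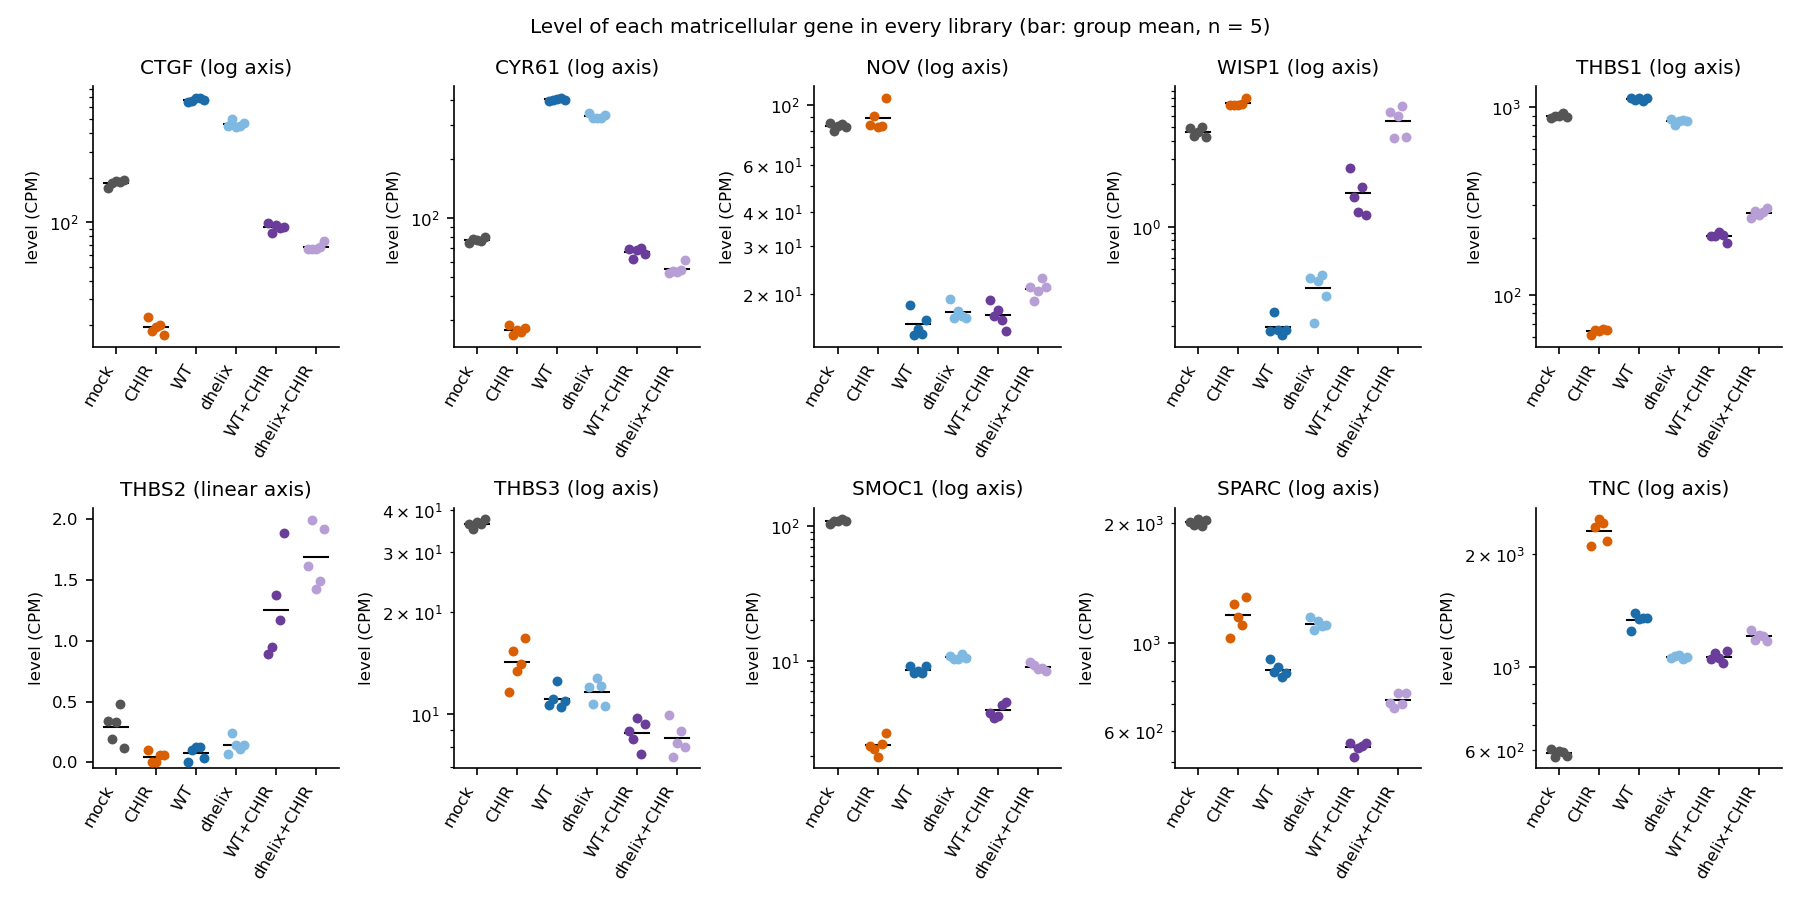
Level of each gene in CPM (vertical axis, logarithmic except for THBS2) in every library of the 6 groups (horizontal axis); each point is 1 library and each bar a group mean (n = 5). CTGF, CYR61 and THBS1 were lowest in CHIR, SMOC1 and SPARC were highest in mock, and THBS2 was at 0.893 CPM or more only in the groups with both agents, and at 0.477 CPM or less elsewhere.

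CHIR alone lowered 7 of the 10 genes and raised 2, WISP1 and TNC, while NOV did not pass the test. The largest falls were in SMOC1, a secreted calcium-binding protein that antagonises BMP signalling, THBS1 and CTGF. A gene was called at an adjusted p under 0.05 in the quasi-likelihood test of edgeR over all genes tested. The share of genes called in this comparison was 74.1% (38.8% higher and 35.3% lower), and 22% were called with a change of at least 2-fold, which 7 of the 10 genes reached. The median log2 fold change of the 10 genes was -1.44 against 0.02 over all genes tested, and the median size without sign was 1.75 against 0.47. Because the genes were chosen with earlier results of these data known, such shares and medians, here and below, only describe the 10 genes. CHIR and mock libraries were fully separate for 9 of the 10 genes, as for 57.7% of genes tested (29.9% higher and 27.8% lower). In bulk RNA, fewer cells making a transcript and less of it per cell cannot be told apart.

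WT FOXP2 alone raised CTGF, CYR61, THBS1 and TNC and lowered the other 6 genes. All 10 were called, in a comparison where 81.6% of genes were called (39.9% higher and 41.6% lower), and 9 changed by at least 2-fold, against 32.6% of genes. The median log2 fold change was -1.47 for the 10 genes and -0.02 over all genes, with median sizes of 1.85 and 0.64. WT FOXP2 and mock libraries were fully separate for 9 of the 10, THBS2 being the exception, as for 73% of genes tested (36.2% higher and 36.8% lower). The dhelix construct gave calls for all 10 genes too, 3 higher and 7 lower, where 80.5% of genes were called (39.6% higher and 40.9% lower), and 7 of the 10 changed by at least 2-fold, against 29.5% of genes. Its libraries were separate from mock for 9 of the 10, again without THBS2, as for 73.2% of genes (36.4% higher and 36.8% lower). CHIR, WT FOXP2 and dhelix FOXP2 are compared with the same 5 mock libraries, so their values are set side by side and not as independent results.

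Markers of other cell types moved with the constructs gene by gene, and their part in these results was not tested. The sum of 5 epithelial markers was 331 to 410 CPM without plasmid and 543 to 689 CPM with it, a rise carried by KRT18, from a mean of 169.5 CPM in mock to 481 CPM in WT FOXP2. KRT8 went from 199 to 170.2 CPM and EPCAM from 6.71 to 4.16 CPM, and of the 4 epithelial markers tested 2 rose and 2 fell with WT FOXP2. The sum of 4 blood markers was 0.294 to 0.715 CPM in mock, 2.26 to 2.98 CPM in CHIR and 10.4 to 19.9 CPM with a construct. ITGAM, at 0.123 CPM in mock and 10.9 CPM in WT FOXP2, and CD3D made up most of the sum with a construct, while PTPRC averaged 1.58 CPM or less in every group. Among bone and mesenchymal markers, RUNX2 went from 58.3 CPM in mock to 7.91 CPM in WT FOXP2 and COL1A1 from 1308 to 219 CPM, whereas ALPL went from 3.19 to 20.6 CPM and VIM from 1968 to 2587 CPM.

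**Figure D2:**
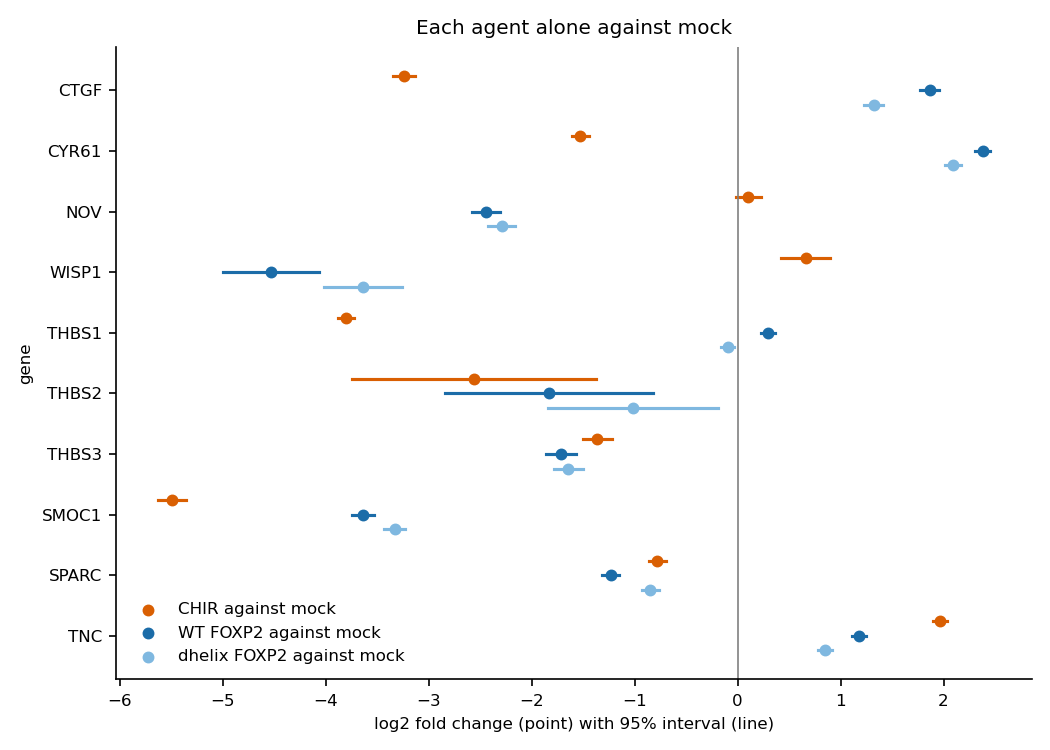
Log2 fold change (horizontal axis; line: 95% interval) of each gene (vertical axis) for CHIR, WT FOXP2 and dhelix FOXP2, each against the same mock libraries. CTGF and CYR61 lie left of 0 with CHIR and right of 0 with either construct, SMOC1, THBS3 and SPARC lie left of 0 in all 3 comparisons, and TNC lies right of 0 in all 3.

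CTGF and CYR61 are secreted CCN proteins that bind integrins and heparan sulphate and act on adhesion, matrix production and blood vessel growth. CTGF was at 170.1, 184, 190.0, 188 and 192 CPM in mock replicates 1 to 5 and at 22.9, 18.2, 19.4, 20.1 and 17.1 CPM in CHIR. It was at 652, 657, 691, 695 and 673 CPM in WT FOXP2 and 447, 500.3, 442, 448 and 473 CPM in dhelix FOXP2. The groups did not overlap: every CHIR library was below every mock library and every library with a construct alone was above them. The log2 fold change against mock was -3.24 ± 0.056 for CHIR (adjusted p = 6.47e-34), 1.87 ± 0.047 for WT FOXP2 (adjusted p = 2.33e-29) and 1.32 ± 0.047 for dhelix FOXP2 (adjusted p = 9.10e-25). The value after ± is a standard error here and in all log2 fold changes that follow.

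CYR61 moved the same way as CTGF in these 3 comparisons, with a smaller fall and a larger rise. It was at 74.8, 78.5, 77.6, 76.5 and 80.3 CPM in mock and 28.3, 25.3, 27, 26.3 and 27.4 CPM in CHIR, a log2 fold change of -1.53 ± 0.043 (adjusted p = 1.14e-27). It reached 397, 399, 408, 411 and 402 CPM in WT FOXP2, a log2 fold change of 2.38 ± 0.038 (adjusted p = 3.44e-35). In dhelix FOXP2 it was at 345, 324, 323, 325 and 335 CPM, a log2 fold change of 2.09 ± 0.038 (adjusted p = 1.36e-33). No library of one of these groups overlapped those of another.

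With both agents, both genes lay between CHIR alone and mock. CTGF was at 98.5, 84.5, 95.3, 91.8 and 93 CPM in WT FOXP2 + CHIR and 65.9, 65.5, 66, 67.5 and 74.6 CPM in dhelix FOXP2 + CHIR, so all 10 libraries were above CHIR and below mock. CYR61 was at 69.2, 62.1, 68.7, 70.4 and 65.5 and 52.1, 53.9, 53.2, 54.1 and 61.4 CPM in the same groups, again without overlap with CHIR or mock. Added to CHIR-treated cells, WT FOXP2 changed CTGF by 2.24 ± 0.057 and CYR61 by 1.32 ± 0.043 on the log2 scale (adjusted p = 8.81e-29 and 1.65e-25). Added to WT FOXP2 cells, CHIR changed them by -2.86 ± 0.050 and -2.59 ± 0.039 (adjusted p = 1.59e-33 and 1.82e-35).

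The ratio of CTGF to CYR61 counts within a library, which needs no scaling between libraries, was not constant. It was 2.38 ± 0.0738 (SD, n = 5) in mock, 0.727 ± 0.0677 in CHIR, 1.67 ± 0.0245 in WT FOXP2 and 1.40 ± 0.0915 in dhelix FOXP2. With CHIR it was 1.38 ± 0.0496 in WT FOXP2 and 1.24 ± 0.0222 in dhelix FOXP2. The 5 mock libraries had the highest ratios of all, from 2.27 to 2.45, and the 5 CHIR libraries the lowest, from 0.625 to 0.808.

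**Figure D3:**
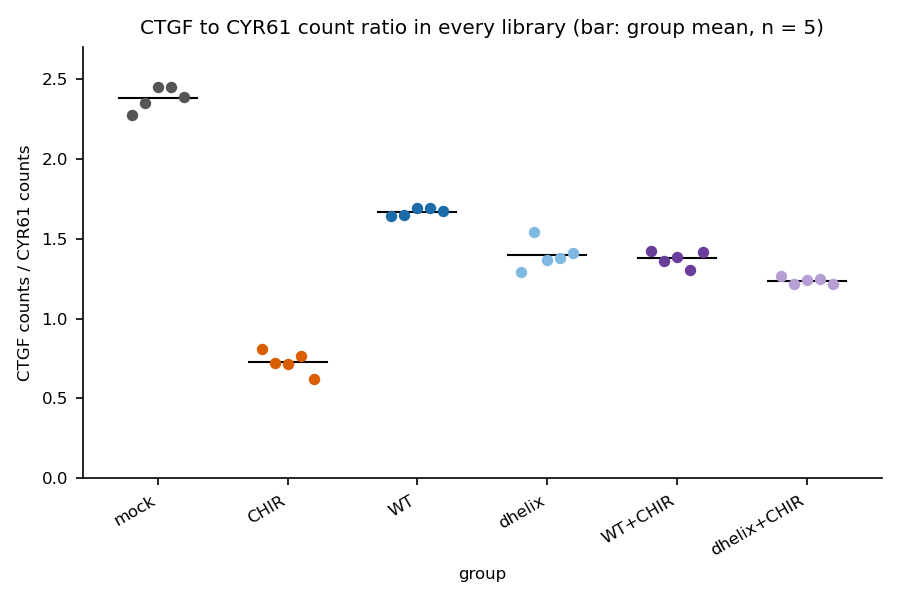
Ratio of CTGF counts to CYR61 counts (vertical axis, linear from 0) in each library of the 6 groups (horizontal axis); bars are group means (n = 5). The ratio was 2.27 to 2.45 in mock and 0.625 to 0.808 in CHIR, and the 4 groups with a construct lay between.

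NOV, a CCN protein often described as opposing the growth and matrix effects of CTGF, was lower in every library with a plasmid than in every library without. It was at 85.5, 80.3, 83.5, 84.8 and 83 CPM in mock and 84.6, 91.4, 82.8, 83.8 and 106 CPM in CHIR, which overlapped, with a log2 fold change of 0.11 ± 0.060 (95% interval -0.013 to 0.22, adjusted p = 0.114). It was at 18.1, 14, 14.8, 14.2 and 15.9 CPM in WT FOXP2 and 19.1, 16.3, 17.3, 16.5 and 16.2 CPM in dhelix FOXP2, and these ranges overlapped. The log2 fold change against mock was -2.44 ± 0.070 for WT FOXP2 (adjusted p = 1.22e-27) and -2.29 ± 0.067 for dhelix FOXP2 (adjusted p = 2.75e-27). In CHIR-treated cells it was -2.42 ± 0.069 for WT FOXP2 and -2.10 ± 0.068 for dhelix FOXP2, each against CHIR alone (adjusted p = 3.49e-27 and 2.53e-25). With both agents NOV stood at 19, 16.5, 17.4, 15.9 and 14.5 CPM in WT FOXP2 + CHIR and 21.2, 18.7, 20.5, 22.8 and 21.2 CPM in dhelix FOXP2 + CHIR.

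WISP1, a CCN protein found in bone-forming cells, was the CCN gene that rose with CHIR. Its levels were 4.96, 4.36, 4.65, 5.01 and 4.27 CPM in mock and 7.14, 7.21, 7.17, 7.26 and 8.03 CPM in CHIR, without overlap (log2 fold change 0.66 ± 0.12, adjusted p = 8.81e-06). In WT FOXP2 it stood at 0.184, 0.249, 0.188, 0.172 and 0.187 CPM and in dhelix FOXP2 at 0.431, 0.21, 0.417, 0.454 and 0.325 CPM. These were the lowest levels of the 6 groups and rested on 20 and 49 counts over 5 libraries, against 490 in mock. The log2 fold change against mock was -4.53 ± 0.24 for WT FOXP2 (adjusted p = 1.74e-19) and -3.64 ± 0.19 for dhelix FOXP2 (adjusted p = 3.15e-19). The ratio of scaled counts to mock was 0.0421 (95% counting interval 0.0255 to 0.0657) for WT FOXP2 and 0.0792 (0.0578 to 0.106) for dhelix FOXP2; such intervals cover counting error only.

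In cells with a construct, CHIR raised WISP1 by a larger factor than in mock-transfected cells, starting from very low counts. It was at 2.6, 1.61, 1.27, 1.89 and 1.2 CPM in WT FOXP2 + CHIR and 6.34, 4.16, 6.02, 7.0 and 4.28 CPM in dhelix FOXP2 + CHIR. The log2 fold change for added CHIR was 3.13 ± 0.29 in WT FOXP2 cells (adjusted p = 8.31e-12) and 3.90 ± 0.19 in dhelix FOXP2 cells (adjusted p = 1.58e-19). The dhelix FOXP2 + CHIR libraries overlapped those of mock and lay below CHIR alone, while the WT FOXP2 + CHIR libraries lay below both.

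THBS1 encodes thrombospondin-1, which binds CD36 and CD47, activates latent TGF-β and inhibits the growth of blood vessels. It was at 872, 893, 902, 933 and 886 CPM in mock and 61.2, 65.1, 64, 66 and 65.5 CPM in CHIR, a log2 fold change of -3.80 ± 0.038 (adjusted p = 2.85e-41). WT FOXP2 cells had 1112, 1086, 1120.0, 1073 and 1114 CPM, above every mock library, with a log2 fold change of 0.30 ± 0.033 (adjusted p = 2.24e-10). The dhelix FOXP2 libraries, at 859, 804, 843, 856 and 839.7 CPM, lay just below the mock libraries, at a log2 fold change of -0.094 ± 0.033 (adjusted p = 0.00871). That call was lost without a filter on low counts (log2 fold change -0.025, adjusted p = 0.714) and when mock replicate 3 or dhelix FOXP2 replicate 2, 3 or 5 was left out (adjusted p = 0.0549 to 0.12). With both agents THBS1 stood at 205, 206, 216, 208 and 190.0 CPM in WT FOXP2 + CHIR and 256, 281, 267, 277 and 291 CPM in dhelix FOXP2 + CHIR, above CHIR alone and below mock.

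THBS2, a thrombospondin that also inhibits vessel growth, was close to absent outside the groups with both agents. Its counts in replicates 1 to 5 were 7, 4, 10, 8 and 2 in mock, 2, 0, 0, 1 and 1 in CHIR, 0, 2, 2, 3 and 1 in WT FOXP2 and 2, 7, 4, 3 and 3 in dhelix FOXP2. They were 22, 20, 26, 21 and 33 in WT FOXP2 + CHIR and 32, 34, 23, 27 and 34 in dhelix FOXP2 + CHIR. Every library with both agents was above every other library, at 0.893 to 1.88 CPM with WT FOXP2 and 1.43 to 1.99 CPM with dhelix FOXP2. THBS2 passed the filter only through these groups. The separation of libraries, and the ratios and fitted change given next, therefore describe its counts and test nothing. The ratio of scaled counts to CHIR alone was 27.2 (95% counting interval 10.4 to 101) for WT FOXP2 + CHIR and 37.7 (14.4 to 140) for dhelix FOXP2 + CHIR. Against the same construct without CHIR it was 15.6 (7.65 to 36.9) for WT FOXP2 and 11.8 (7.31 to 20.2) for dhelix FOXP2. The fitted log2 fold change of WT FOXP2 + CHIR against CHIR was 4.60 ± 0.44, and 5.19 without the 3 libraries that stood apart.

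THBS2 was lower with each agent alone than at the small level in mock, on very few counts. It had 31 counts over the 5 mock libraries, 4 in CHIR, 8 in WT FOXP2 and 19 in dhelix FOXP2. The ratio of scaled counts to mock was 0.152 (0.0390 to 0.430) for CHIR, 0.266 (0.106 to 0.592) for WT FOXP2 and 0.485 (0.259 to 0.887) for dhelix FOXP2, with adjusted p = 0.000268, 0.00154 and 0.0275. The dhelix call was lost without a filter (adjusted p = 0.0619) and when mock replicate 1, 3 or 4 or dhelix FOXP2 replicate 1 or 4 was left out (adjusted p = 0.0541 to 0.0892). The sum of the 3 of 4 endothelial markers in the table was also highest with both agents. It was 17.2 to 25.7 CPM in WT FOXP2 + CHIR and 40.1 to 48.3 CPM in dhelix FOXP2 + CHIR, against 2.36 to 10.6 CPM in the other groups. VWF made up most of this sum with both agents, and the other 2 markers did not follow it. CDH5 was highest in dhelix FOXP2, at a mean of 1.15 CPM, and lowest in WT FOXP2 + CHIR, at 0.195 CPM. TEK was highest in mock, at 1.88 CPM, and at 0.65 and 0.80 CPM in WT FOXP2 + CHIR and dhelix FOXP2 + CHIR. The part of these markers in the THBS2 result was not tested.

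THBS3, a thrombospondin of cartilage and bone, was highest in mock, at 36.3, 35.1, 36.9, 36.3 and 37.5 CPM. It was at 11.6 to 16.7 CPM in CHIR, 10.5 to 12.5 CPM in WT FOXP2 and 10.6 to 12.8 CPM in dhelix FOXP2, and these 3 ranges overlapped each other but not mock. The log2 fold changes were -1.36 ± 0.072, -1.72 ± 0.073 and -1.64 ± 0.070 (adjusted p = 4.37e-19, 3.24e-22 and 4.17e-22). With both agents it was lower still, at 7.63 to 9.75 CPM in WT FOXP2 + CHIR and 7.5 to 9.96 CPM in dhelix FOXP2 + CHIR.

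SMOC1 had the widest range of group means among the 10 genes, 44.7-fold between mock and CHIR. It was at 103, 107, 107, 111 and 108 CPM in mock and 2.36, 2.24, 1.98, 2.46 and 2.98 CPM in CHIR, a log2 fold change of -5.49 ± 0.069 (adjusted p = 2.73e-38). It was at 9.16, 8.23, 8.44, 8.22 and 9.22 CPM in WT FOXP2 and 10.9, 10.4, 10.3, 11.2 and 10.6 CPM in dhelix FOXP2, log2 fold changes of -3.63 ± 0.055 and -3.33 ± 0.052 against mock (adjusted p = 7.60e-36 and 1.73e-35). All mock libraries were far above all libraries with either agent, and CHIR was lowest. In CHIR-treated cells the constructs had the opposite sign: SMOC1 was at 4.14, 3.84, 3.95, 4.79 and 5.02 CPM in WT FOXP2 + CHIR and 9.91, 9.38, 8.81, 8.88 and 8.5 CPM in dhelix FOXP2 + CHIR, above every CHIR library. The log2 fold change against CHIR alone was 0.85 ± 0.10 for WT FOXP2 (adjusted p = 9.67e-10) and 1.93 ± 0.088 for dhelix FOXP2 (adjusted p = 7.95e-21).

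SPARC, which binds collagen and calcium, fell in every comparison of an agent with its control. It was at 2014, 1974, 2041, 1967 and 2036 CPM in mock, 1028, 1253, 1162, 1106 and 1300.0 CPM in CHIR, 907, 841, 868, 817 and 839 CPM in WT FOXP2 and 1162, 1075, 1131, 1103 and 1109 CPM in dhelix FOXP2. Mock was above all other libraries, and CHIR and dhelix FOXP2 overlapped. The log2 fold change was -0.78 ± 0.042 for CHIR, -1.23 ± 0.042 for WT FOXP2 and -0.85 ± 0.042 for dhelix FOXP2 (adjusted p = 7.46e-19, 3.65e-25 and 3.70e-20). With both agents SPARC was at 559.7, 516, 544, 549.9 and 559 CPM in WT FOXP2 + CHIR and 704, 685, 748, 699.5 and 745 CPM in dhelix FOXP2 + CHIR, its lowest levels of the 6 groups.

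TNC encodes tenascin-C, a large matrix glycoprotein of developing and injured tissue. It was at 605, 577, 598, 594 and 580.4 CPM in mock and 2104, 2361, 2476, 2426 and 2169 CPM in CHIR, the highest levels of the 6 groups (log2 fold change 1.97 ± 0.036, adjusted p = 3.02e-33). It rose to 1250.5, 1391, 1339, 1349 and 1353 CPM in WT FOXP2 and 1056, 1069, 1079, 1048 and 1066 CPM in dhelix FOXP2, log2 fold changes of 1.18 ± 0.035 and 0.85 ± 0.035 (adjusted p = 5.50e-27 and 1.55e-22). All these libraries were above every mock library. With both agents TNC was at 1052, 1088, 1059, 1027 and 1104 and 1256, 1184, 1219, 1213 and 1173 CPM, far below CHIR alone, so that the same constructs that raised it without CHIR lowered it with CHIR, by 1.11 ± 0.035 and 0.93 ± 0.035 on the log2 scale (adjusted p = 7.17e-26 and 2.03e-23).

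In CHIR-treated cells all 10 genes were called for WT FOXP2, where 78.4% of genes were called (38.2% higher and 40.2% lower), and all 10 for dhelix FOXP2, where 75.9% were (37% higher and 38.9% lower). These comparisons share the 5 CHIR libraries. In each case CTGF, CYR61, THBS1, THBS2 and SMOC1 were higher than with CHIR alone and the other 5 genes were lower, with libraries fully separate for all 10. That held for 60.7% of genes with WT FOXP2 (30.2% higher and 30.4% lower) and 56.6% with dhelix FOXP2 (28.3% in each direction). THBS2 had to differ here, having passed the filter only through these groups, so that its part in these counts, and in those for added CHIR and for the interactions, says nothing. CHIR added to WT FOXP2 cells gave 9 calls of 10, 2 higher and 7 lower (64.9% of genes, 34.8% higher and 30.2% lower). NOV was the exception at 0.13 (95% interval -0.029 to 0.28). TNC, which CHIR raised in mock-transfected cells, was lowered by CHIR in WT FOXP2 cells (-0.33, adjusted p = 2.67e-10). CHIR added to dhelix FOXP2 cells gave 10 calls of 10, 4 higher and 6 lower (63.2% of genes, 34.1% higher and 29.1% lower). Of these, NOV at 0.29 ± 0.074 and TNC at 0.19 ± 0.035 were the smallest rises (adjusted p = 0.000899 and 1.81e-05). The TNC call in dhelix FOXP2 cells was lost without a filter on low counts (0.10, adjusted p = 0.0577).

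The interaction of WT FOXP2 with CHIR asks whether the construct changed a gene by a different factor in CHIR-treated cells than in untreated ones. It was called for 8 of the 10 genes, where 65.6% of genes were called, and 7 reached 2-fold, against 21.7% of genes. Without THBS2, 7 of the other 9 genes were called and 6 reached 2-fold. A positive value means that the construct's log2 fold change was higher with CHIR. It was 4.49 ± 0.11 for SMOC1, 2.46 ± 0.33 for WISP1, 1.38 ± 0.048 for THBS1 and 1.03 ± 0.11 for THBS3 (adjusted p = 4.69e-28, 3.99e-08, 6.07e-24 and 3.36e-10). For SMOC1 the construct's effect changed sign, for THBS1 the rise grew, and for WISP1 and THBS3 the fall shrank. The WISP1 value rests on 20 counts over the 5 WT FOXP2 libraries. For TNC the interaction was -2.29 ± 0.050 (adjusted p = 7.83e-30), again with a change of sign, from a rise to a fall.

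The pair CTGF and CYR61 split in this test. The effect of WT FOXP2 on CTGF was slightly larger with CHIR, with an interaction of 0.37 ± 0.073 (adjusted p = 2.90e-05), and its effect on CYR61 was smaller, with -1.06 ± 0.057 (adjusted p = 2.49e-18). The fitted interaction of THBS2, 6.43 ± 0.71, rests on very low counts in 3 of the 4 groups and is given with no test. NOV had 0.02 ± 0.099 (95% interval -0.17 to 0.21), and SPARC had 0.13 ± 0.059 (95% interval 0.015 to 0.25, adjusted p = 0.0501). For SPARC the adjusted p fell under 0.05 in 20 of the 28 alternative fits.

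The interaction of dhelix FOXP2 with CHIR was called for 9 of the 10 genes, where 64.8% of genes were called, and without THBS2 for 8 of the other 9; NOV was not called, at 0.18 ± 0.096 (95% interval -0.0028 to 0.37). The fitted value for THBS2 was 6.07 ± 0.66, with the same limit, and the largest of the others were 5.26 ± 0.10 for SMOC1, 3.24 ± 0.24 for WISP1 and 2.19 ± 0.048 for THBS1 (adjusted p = 9.90e-32, 2.02e-14 and 1.36e-29). The values were 0.47 ± 0.074 for CTGF, -1.06 ± 0.058 for CYR61, 0.91 ± 0.11 for THBS3 and -1.78 ± 0.050 for TNC (adjusted p = 8.37e-07, 3.42e-18, 4.87e-09 and 1.08e-26). SPARC, at 0.14 ± 0.059 (adjusted p = 0.0385), was no longer called without the 3 libraries that stood apart (0.091, adjusted p = 0.0954). The 2 interactions share the mock and CHIR libraries. FOXP2 itself was higher with CHIR, at means of 15299 against 7076 CPM with the WT construct and 13481 against 5319 CPM with the dhelix construct, and the part of this difference in the interactions was not tested.

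**Figure D4:**
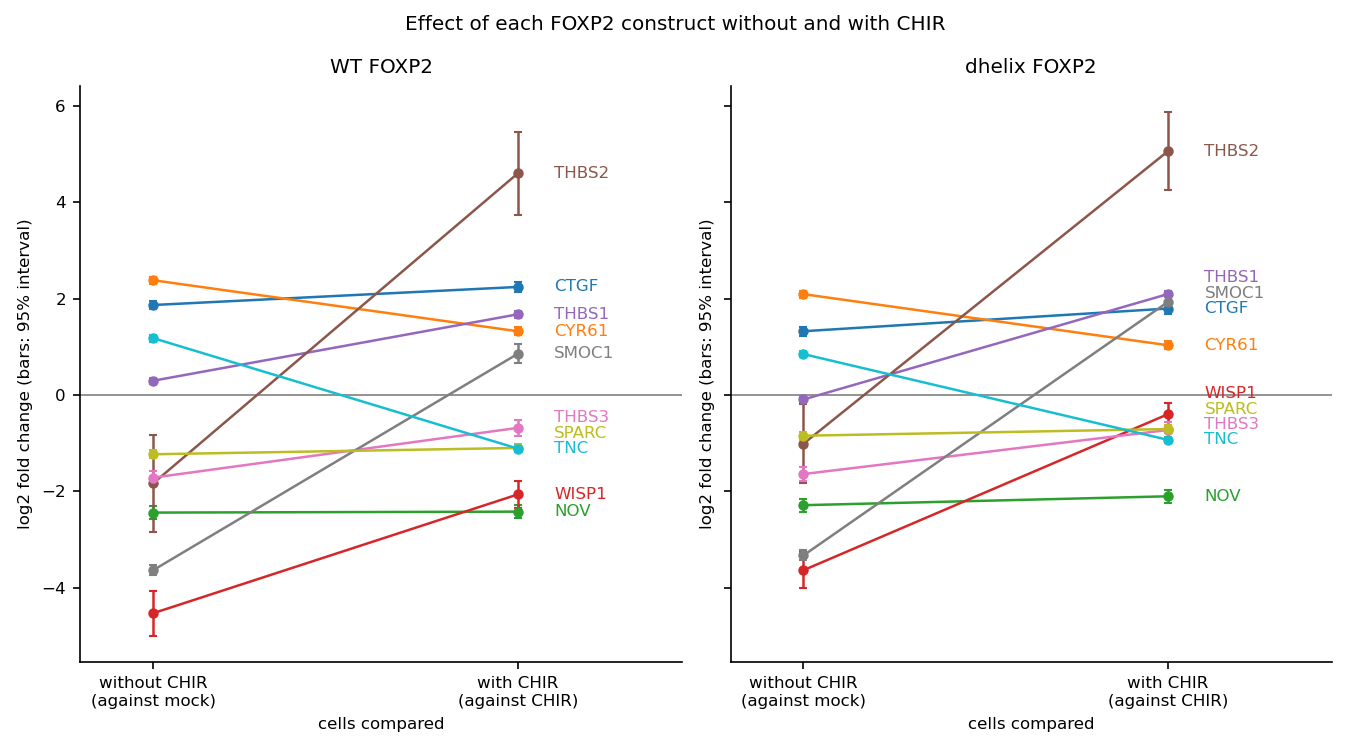
Log2 fold change (vertical axis; bars: 95% interval) of each gene for WT FOXP2 (left) and dhelix FOXP2 (right), against mock without CHIR and against CHIR with it; lines join the values of 1 gene. SMOC1 and THBS2 cross from below 0 to above it and TNC crosses from above to below with both constructs, while NOV and SPARC stay close to level.

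The constructs themselves were compared to ask what the loss of residues 264 to 272 changed. Without CHIR, dhelix FOXP2 differed from WT FOXP2 for 6 of the 10 genes, where 35.6% of genes were called, and none of the 10 reached 2-fold, as 2.56% of genes did (0.698% lower). CTGF, CYR61, THBS1 and TNC were lower with dhelix FOXP2, by 0.54 ± 0.045, 0.29 ± 0.035, 0.39 ± 0.033 and 0.33 ± 0.035 on the log2 scale (adjusted p = 7.04e-12, 4.35e-08, 8.46e-12 and 1.83e-09). SMOC1 and SPARC were higher, by 0.30 ± 0.063 and 0.38 ± 0.042 (adjusted p = 0.000218 and 3.41e-09). The libraries of the 2 constructs did not overlap for these 6 genes, as for 29.9% of genes tested. The other 4 were not called, with 95% intervals of 0.005 to 0.30 for NOV, 0.13 to 1.66 for WISP1, -0.31 to 1.95 for THBS2 and -0.08 to 0.23 for THBS3. These intervals are not adjusted for the number of genes tested, so that one can exclude 0 where the adjusted p is above 0.05.

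NOV was called without WT FOXP2 replicate 1 (0.22, adjusted p = 0.02) and WISP1 without dhelix FOXP2 replicate 2 (1.06, adjusted p = 0.0358). NOV was also called without a filter on low counts (0.20, adjusted p = 0.0202) and with the compared groups fitted alone (0.17, adjusted p = 0.0275). FOXP2 RNA averaged 5319 CPM in dhelix FOXP2 (4655 to 6359) and 7076 CPM in WT FOXP2 (5906 to 7806), and the part of this difference in the results was not tested.

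With CHIR, 8 of the 10 genes differed between the constructs, where 30.6% of genes were called, and 2 reached 2-fold, against 2.16% of genes. These were WISP1 at 1.66 ± 0.15 and SMOC1 at 1.08 ± 0.077 (adjusted p = 8.38e-11 and 2.71e-13), both higher with dhelix FOXP2. A change larger than that of WISP1 was seen in 0.417% of the genes tested. CTGF and CYR61 were again lower with dhelix FOXP2, at -0.45 ± 0.050 and -0.29 ± 0.040 (adjusted p = 8.06e-09 and 5.79e-07). THBS1 and TNC were now higher, at 0.42 ± 0.034 and 0.18 ± 0.035 (adjusted p = 4.64e-12 and 0.000101), as were SPARC at 0.39 ± 0.042 and NOV at 0.32 ± 0.077 (adjusted p = 3.46e-09 and 0.00141). The libraries were fully separate for 7 of the 10, NOV being the called gene that overlapped, against 24.5% of genes tested. THBS3 had an interval of -0.22 to 0.13, and THBS2, with 0.059 to 0.86, was called only when WT FOXP2 + CHIR replicate 5 was left out (0.64, adjusted p = 0.0192).

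The interaction of the helix deletion with CHIR tested whether these differences themselves changed with CHIR. It was called for THBS1, SMOC1 and TNC, 3 of the 10 genes, where 14.2% of genes were called. The values were 0.81 ± 0.047 for THBS1, 0.77 ± 0.10 for SMOC1 and 0.51 ± 0.049 for TNC (adjusted p = 1.10e-14, 1.33e-06 and 3.48e-09), and none reached 2-fold, as 0.974% of genes did. For THBS1 and TNC the sign of the difference between constructs reversed, from lower to higher with dhelix FOXP2. For CTGF, CYR61 and SPARC the intervals were -0.036 to 0.23, -0.10 to 0.10 and -0.11 to 0.12. The interval of WISP1 was wide, -0.14 to 1.68, and its larger difference with CHIR is therefore not shown to differ from that without.

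**Figure D5:**
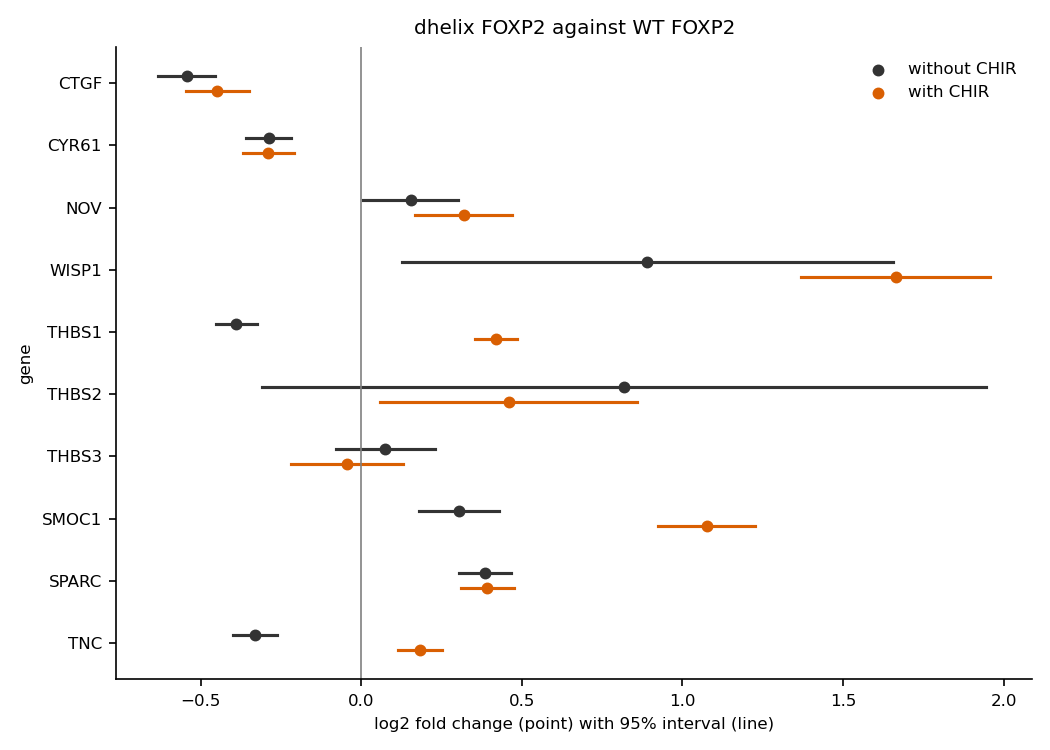
Log2 fold change (horizontal axis; line: 95% interval) of dhelix FOXP2 against WT FOXP2 for each gene (vertical axis), without and with CHIR. CTGF and CYR61 lie left of 0 in both, SPARC right of 0 in both, and THBS1 and TNC left of 0 without CHIR and right of 0 with it.

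Other genes of the same and related families were taken from lists and counted by the same test. The lists too were chosen with earlier results of these data known, so their counts only describe them. Of 18 other matricellular genes, 10 were tested, and 6 fell and 2 rose with CHIR, where 35.3% of all genes fell and 38.8% rose. With WT FOXP2, 8 fell and 1 rose, where 41.6% of all genes fell and 39.9% rose. With CHIR, TNXB, which encodes tenascin-X, changed by -1.97 ± 0.15 on the log2 scale and SPOCK2, a matrix proteoglycan, by -1.81 ± 0.26. With WT FOXP2, the thrombospondin gene THBS4 changed by -1.73 ± 0.089 and the proteoglycan gene SPOCK1 by -1.32 ± 0.062. The interaction of WT FOXP2 with CHIR was 3.28 ± 0.19 for TNXB and 2.46 ± 0.36 for SPOCK2, with 5 of the 10 called higher and 3 lower, where 30.7% of all genes were higher and 34.9% lower.

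Among receptors of matricellular proteins, 19 of 21 were tested: 14 fell and 4 rose with CHIR, 13 fell and 4 rose with WT FOXP2, and 10 had a positive and 2 a negative interaction of WT FOXP2 with CHIR. Over all genes the shares were 35.3% lower and 38.8% higher with CHIR, 41.6% and 39.9% with WT FOXP2, and 30.7% positive and 34.9% negative for the interaction. ITGB3, the β3 integrin chain that pairs with αV, fell from a mean of 18.2 CPM in mock to 0.197 CPM in CHIR and 1.94 CPM in WT FOXP2. ITGB8, another partner of αV that activates TGF-β, was at 158 CPM in mock, 15.3 CPM in CHIR and 12.3 CPM in WT FOXP2. SDC2, a heparan sulphate proteoglycan, changed by -3.30 ± 0.077 with WT FOXP2 (adjusted p = 1.82e-30).

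The YAP/TEAD target list, which does not hold CTGF or CYR61, had 19 of 20 genes tested. Of these, 13 rose and 6 fell with WT FOXP2, where 39.9% of all genes rose and 41.6% fell. The median log2 fold change was 0.73 against -0.02 over all genes. With CHIR 7 rose and 10 fell, where 38.8% of all genes rose and 35.3% fell, with a median of -0.19 against 0.02. Single genes varied: GADD45A, a growth arrest gene, rose with CHIR (2.75 ± 0.057) and with WT FOXP2 (2.49 ± 0.057), and TGFB2 fell with WT FOXP2 (-2.55 ± 0.081). ARHGEF17 fell with CHIR (-2.48 ± 0.064). Between constructs without CHIR, 11 of the 19 were lower with dhelix FOXP2 and 1 was higher, where 18.7% of all genes were lower and 16.9% higher. The interaction of WT FOXP2 with CHIR was positive for 4 and negative for 12, where 30.7% of all genes were positive and 34.9% negative, with GADD45A at -2.76 ± 0.075 and FJX1 at -2.17 ± 0.14.

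Of 19 Hippo and SRF regulators, 11 fell and 6 rose with CHIR, and 7 fell and 10 rose with WT FOXP2. Of all genes, 35.3% fell and 38.8% rose with CHIR and 41.6% fell and 39.9% rose with WT FOXP2. MYOCD, which encodes the SRF coactivator myocardin, was at a mean of 33.9 CPM in mock, 0.0565 CPM in CHIR and 0.121 CPM in WT FOXP2. WWTR1, which encodes TAZ, changed by -1.03 ± 0.046 with CHIR, and TEAD2 by -2.12 ± 0.075 with WT FOXP2. TEAD1 had an interaction of -1.28 ± 0.060, and 6 of the 19 genes had a positive and 11 a negative one, against 30.7% and 34.9% of all genes. Of 14 TGF-β ligands, receptors, SMADs and targets, 10 fell and 4 rose with CHIR, and 9 fell and 3 rose with WT FOXP2, against the same shares of all genes. SMAD6, an inhibitory SMAD, changed by -3.43 ± 0.11 with CHIR and -4.15 ± 0.11 with WT FOXP2. The TGF-β receptor gene TGFBR2 had an interaction of -1.99 ± 0.051, and the list held 8 positive and 5 negative interactions, where 30.7% of all genes were positive and 34.9% negative.

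Likeness of pattern was measured as the root mean square difference between the 6 group means of log2 CPM after centring each gene, over 15135 other genes with a mean of at least 1 CPM. Among the 10 genes, CTGF was closest to CYR61 at 0.51, and 0.0264% of other genes were closer to CTGF. CTGF and THBS1 differed by 0.59, and THBS3 and SPARC by 0.27, the closest pair of the 10. For that pair, however, 2.31% of other genes were closer to THBS3 and 4.02% were closer to SPARC. NOV and WISP1, the other 2 CCN genes, differed from CTGF by 2.51 and 3.41, and 96.7% and 99.3% of other genes were closer to it. These values describe 6 group means and carry no test.

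The nearest genes by this measure were CTC-529P8.1 (0.091) and GSG1 (0.40) for CTGF, and CRIM1 (0.17) and C20orf197 (0.22) for CYR61. CRIM1, which encodes a membrane protein with CCN-like cysteine-rich repeats, was also in the YAP/TEAD list. For NOV they were SLCO1A2 (0.097) and TSC22D1 (0.098), and for WISP1 CMKLR1 (0.33). For THBS1 they were SH3TC2 (0.33) and FRAT2 (0.38), for THBS2 SBK3 (0.42) and FTCD (0.44), and for THBS3 ERBB2 (0.043) and PPP2R3B (0.063). SMOC1 was nearest to LINC00312 (0.41) and HR (0.45), SPARC to RP1-80N2.3 (0.025) and ITM2B (0.037), and TNC to BCAR3 (0.16) and KLHL8 (0.16). SPARC and THBS3 had the closest first neighbours of the 10, and THBS2 and SMOC1 the most distant ones. Several neighbours were just above the minimum of 1 CPM. RP1-80N2.3 averaged 1.18 CPM over all libraries, LINC00312 1.25, C20orf197 1.43, GSG1 1.59 and CTC-529P8.1 1.67, whereas CRIM1 averaged 247 and ITM2B 87.5 CPM.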

How the data were processed

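RNA was measured in 30 libraries of stranded mRNA (TruSeq, NextSeq), 6 groups of 5 biological replicates, per the labels. The authors deposited whole-number counts per gene, not normalised. Tools listed in the submitters' processing notes are STAR (2.6.1a), Subread with featureCounts, and DESeq2, and the build is hg19. Annotation release and strand setting: not given in the sources used here, which leaves overlapping genes uncertain.

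Counts were scaled by trimmed means of M values and fitted with edgeR 4.0.16 in R 4.3.3 (quasi-likelihood, robust, 1 mean per group, all libraries), after its default filter, which kept 18485 of 57373 genes with 99.9% of counts. The 9 pairs of groups and 3 interactions were each adjusted by Benjamini-Hochberg over all genes tested. Standard errors are the log2 fold change divided by the square root of F, and 95% intervals span 1.96 standard errors. CPM use the scaled library sizes, and log2 CPM a prior count of 2. Lengths are exon unions of GENCODE 29, matched by Ensembl ID. Promoter windows and their coordinates are from RefSeq, GRCh38.p14; the counts use hg19, for which no gene positions are printed. The lowest chi-square per gene between replicates was 1.39, above sampling noise, so none was counted as a repeat deposit. Common biological variation (edgeR) was 5.62%. Same-numbered replicates did not deviate together (correlations -0.0775 to 0.145).

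The 10 genes and the lists were chosen with earlier results of these data known. Beyond the 10 genes, FOXP2 and AXIN2, the text names the 2 called genes of each list with the largest change in CHIR or WT FOXP2 against mock or in the WT FOXP2 interaction (mean of at least 1 CPM), and the 2 nearest genes by pattern, some of which are not reported here; epithelial, blood, endothelial and bone genes named with levels are markers. Alternatives were DESeq2 size factors, DESeq2 1.42.0, FOXP2 left out, a mean of at least 1 CPM, no filter, a replicate block, the compared groups alone, the 3 libraries that stood apart left out, and each library left out in turn.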

Additional observations from a re-analysis of the deposited data

Results flagged for a closer look

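In 5 of the 60 sets of 5 libraries examined (10 genes in 6 groups), 1 library lay far from the other 4 by Dixon's test; chance does this in about 1 set in 20. In dhelix FOXP2 + CHIR replicate 5, CTGF was at 74.6 CPM, with the next library at 67.5, and CYR61 at 61.4 CPM, with the next at 54.1. WISP1 was at 8.03 CPM in CHIR replicate 5 (next 7.26) and at 0.249 CPM in WT FOXP2 replicate 2 (next 0.188). The WT FOXP2 libraries held only 3 to 5 WISP1 counts each, and replicates 2 and 5 both held 5, so that flag carries little weight. THBS3 was at 12.5 CPM in WT FOXP2 replicate 3 (next 11.1).

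An effect differed between cells without and with CHIR in 20 of the 30 interactions tested on the 10 genes. The threshold was an adjusted p under 0.05 (edgeR). Of all genes tested, 65.6% were called for the interaction of WT FOXP2, 64.8% for dhelix FOXP2 and 14.2% for the helix deletion. These interactions share libraries, so their calls are not independent, and the count only describes the 10 genes. For WT FOXP2 the log2 differences were 0.37 for CTGF, -1.06 for CYR61, 2.46 for WISP1, 1.38 for THBS1, 6.43 for THBS2, 1.03 for THBS3, 4.49 for SMOC1 and -2.29 for TNC. For dhelix FOXP2 they were 0.47 for CTGF, -1.06 for CYR61, 3.24 for WISP1, 2.19 for THBS1, 6.07 for THBS2, 0.91 for THBS3, 5.26 for SMOC1, 0.14 for SPARC and -1.78 for TNC. For the difference between constructs they were 0.81 for THBS1, 0.77 for SMOC1 and 0.51 for TNC. The values of THBS2 follow from how it passed the filter, only through the groups with both agents, and support nothing.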

How the results depend on the processing

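Over 8 alternatives and 30 left-out libraries, 2363 of 2442 values for the 10 genes kept their direction and their side of the threshold, and 108 of 120 results never changed. No scaling moved the median of all genes by over 0.1. Counts of genes called moved by over 1.5 times in 1 case: the interaction of the helix deletion with CHIR had 2627 calls, and 4291 when the compared groups were fitted alone. THBS2 could not be tested at a mean of at least 1 CPM. Replicate numbers did not pair the samples. With a replicate block, calls for CHIR against mock went from 13695 to 13724, and the 1 call of a gene that changed was the SPARC interaction with WT FOXP2 (0.13, adjusted p = 0.0445); the block changed no other call of the 10 genes.

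Values that changed sign were all near 0 and none was called. For SPARC and the helix deletion with CHIR (main value 0.0076), they were -1.5e-05 with DESeq2 size factors, -0.055 without a filter, -0.017 at a mean of at least 1 CPM, -8.7e-05 with DESeq2, -0.015 without the 3 libraries that stood apart and -0.0093 with the groups alone, and -0.039 to 0.023 with 1 library left out. Leaving out 1 library gave -0.052 to 0.018 for CYR61 in that test and -0.015 to 0.12 for NOV in the WT FOXP2 interaction. The SPARC interactions lay at the threshold, each with 28 alternative fits. With WT FOXP2 the adjusted p fell below it in 20 of the 28, to 0.00179 at the lowest. With dhelix FOXP2 the adjusted p rose above it in 11 of the 28, to 0.461 without a filter. The NOV interaction with dhelix FOXP2 was called at a mean of at least 1 CPM (0.24, adjusted p = 0.028), with FOXP2 left out (0.21, adjusted p = 0.0493), and without mock replicate 2, CHIR replicate 5 or dhelix FOXP2 replicate 1 (adjusted p = 0.00505 to 0.0439). The cause was not tested. Depth limits THBS2 and WISP1, which had as few as 4 and 20 counts over a group.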
